A study of Mus musculus with 12 samples.

Results

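The genes described here are those of the collagen chains of the mouse uterus, meaning every gene whose symbol is Col, a number, the letter a and a number. They were found by name or by the current symbol of the probe's accession, and they came to 43 genes of 27666 on the arrays, or 82 probes of 41174. By the structures their proteins build, 11 were fibrillar, 8 belonged to basement membranes and 24 were of other kinds. Transcripts were measured on 12 arrays, with 1 uterus of 1 mouse on each. Each of the 4 groups held 3 mice: EAAE mice 2 h after estradiol (EAAE E2), EAAE mice 2 h after saline (EAAE saline), wild-type mice after estradiol (WT E2) and wild-type mice after saline (WT saline). EAAE is the label of an Esr1 genotype whose estrogen receptor alpha is, per the series title, deficient in DNA binding. All mice were ovariectomized adult females of at least 10 weeks on a mixed C57bl6/J and 129 background, and they rested for 10 to 14 days so that their own hormones could clear. The injection was 100 ul of either saline or estradiol (E2, the main estrogen), for which the labels state no dose. The labels do not say in which tissues the EAAE allele acts, and a whole uterus mixes stroma, epithelium, muscle, vessels and blood cells.

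Collagens are proteins of 3 chains wound around each other, and most types are built from chains of more than 1 gene. Fibrillar collagens such as types I, III and V form the tension-bearing fibres of connective tissue, type IV forms the sheet-like network of basement membranes, and type VI forms beaded filaments between cells and fibres. In the uterus, stromal fibroblasts and smooth muscle make most fibrillar collagen, and estrogen is known to loosen and rebuild this matrix as the organ takes up water and grows. The receptor can sit on DNA itself, at estrogen response elements, or be held at a gene by other bound factors. The study compared mice with a receptor deficient in the first of these with wild-type mice.

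Values are log2 intensities relative to the 75th percentile of the same array, so each gene is read on its own scale and never against another gene. A gene counts as called where limma's adjusted p, over all 19301 genes tested, was below 0.05. Of the 43 collagen genes, 38 were tested through 66 probes. The other 5 (Col6a6, Col9a1, Col10a1, Col19a1 and Col28a1) had no probe well above background on all arrays of any group. Where a gene had several tested probes (22 genes), the brightest stands for it. No collagen probe was saturated.

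Esr1 transcript lay at 3.26, 3.09 and 3.04 in EAAE E2, at 3.22, 3.42 and 3.42 in EAAE saline, at 2.72, 2.65 and 2.76 in WT E2 and at 2.84, 3.02 and 3.01 in WT saline. The allele changes the protein, so these levels check the labels only in part. All 6 genes that mark the uterus (Esr1, Pgr, Hoxa10, Hoxa11, Hand2 and Emx2) were measured. Over the 19301 tested genes, with 1 probe for each, r between arrays was 0.9825 to 0.9935 inside groups and 0.9184 to 0.9883 across groups. The p-values measure the spread between mice. In a whole organ, fewer cells of a type and less RNA per cell cannot be told apart. Markers of cartilage, where Col2a1 is best known, were mostly below background (2 of 6 tested, none called).

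In the WT uterus E2 moved collagen genes in both directions within 2 h. All 4 tested chains of type VI and the type VIII chain Col8a2 were higher after E2, while the fibrillar genes Col3a1, Col2a1, Col24a1 and Col5a2 were lower. In the EAAE uterus 1 collagen gene, Col22a1, passed the test. In WT, 7 collagen genes rose and 5 fell of 38 tested (31.6%), and over all genes 49.4% were called (19.5% higher and 29.9% lower), so the collagen share was below that of all genes. The split moved with the setting: 9 rose and 4 fell with arrays scaled to their median, 6 and 8 with probes averaged, 8 and 10 with the arrays of the comparison alone, 9 and 10 with array weights, and 8 and 9 without EAAE E2 2. In EAAE, the single call (2.63%) stands against 1.40% of all genes, of which 0.689% were higher and 0.715% lower. The 3 arrays of each group did not overlap for 4 higher and 1 lower collagen gene in EAAE (9.95% and 8.51% of all genes) and for 8 higher and 13 lower in WT (24.7% and 39.8% of all genes). The median change over the 38 collagen genes was -0.11 in WT and 0.13 in EAAE, and over all genes -0.15 in WT and 0.03 in EAAE. The responses of the genotypes differed past the threshold for 13 collagen genes, 8 with a higher and 5 with a lower change in EAAE than in WT (34.2%). Over all genes 37.5% were called, 22.7% higher and 14.8% lower. With quantile scaling these were 6 and 6, and without WT E2 2 or without WT E2 3 they were 3 and 5.

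**Figure D1:**
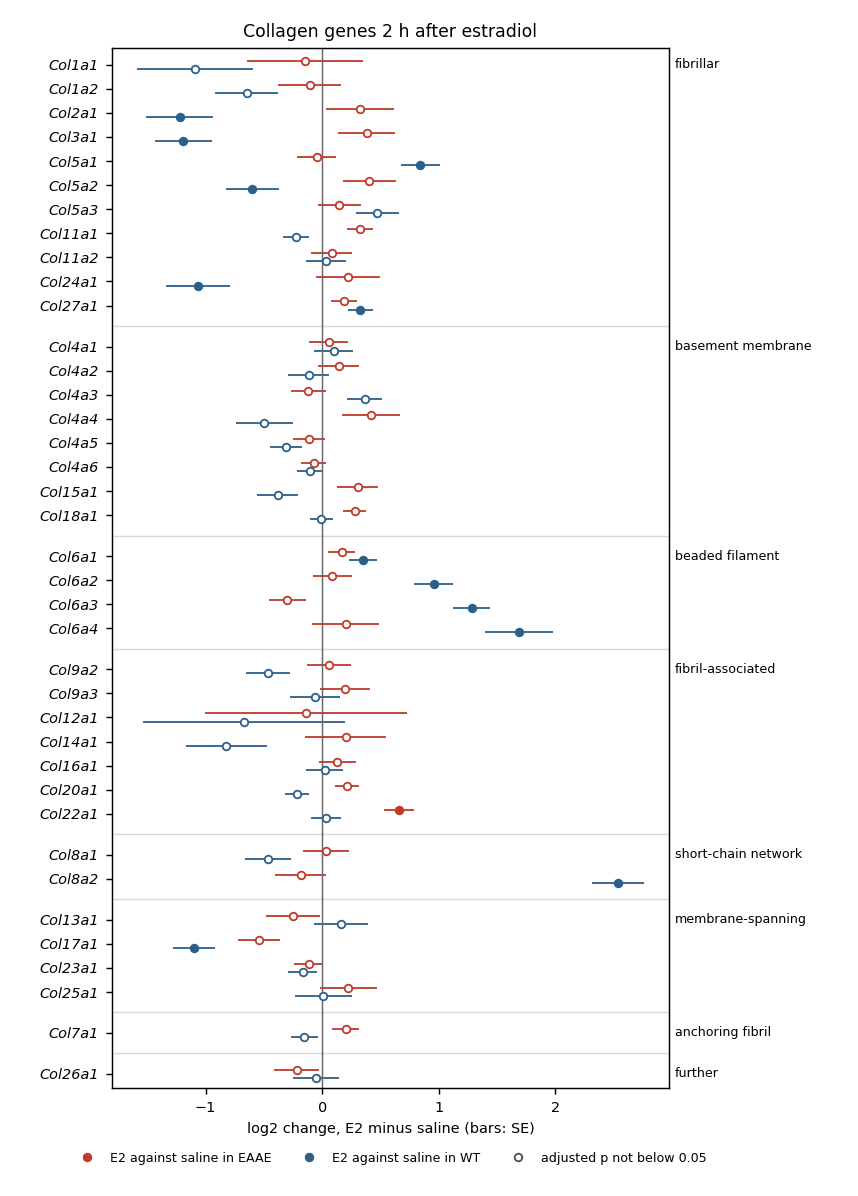
Log2 change after estradiol (x axis, E2 minus saline, n = 3 mice per group, bars are SE) of the 38 tested collagen genes, grouped by type, in EAAE (red) and WT (blue). Filled points passed the threshold: in WT they lie at up to 2.54 for Col8a2 and down to -1.22 for Col2a1, and in EAAE the single one is Col22a1 at 0.66.

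Type VI collagen, whose chains Col6a1 and Col6a2 join with a longer chain such as Col6a3 or Col6a4, had all 4 of its tested chains called higher after E2 in WT. Col6a3 lay at 2.63, 2.01 and 2.50 in EAAE E2, 2.55, 2.63 and 2.86 in EAAE saline, 4.95, 5.13 and 4.82 in WT E2 and 3.70, 3.58 and 3.78 in WT saline. Every WT E2 array was above every WT saline array, and all EAAE arrays were below both. E2 raised Col6a3 in WT by 1.28 (SE 0.16, adjusted p = 9.11e-05), a 2.43-fold change, against -0.30 in EAAE (adjusted p = 0.387), and the responses differed by -1.58 (SE 0.22, adjusted p = 0.000447). Its probe lies on chromosome 1 at 90671098 to 90671157 (mm7, minus strand). A second, dimmer probe gave 1.76 in WT (adjusted p over all probes = 1.81e-05).

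Col6a4, named 1110001D15Rik in the files, had the widest gap between genotypes of the collagen genes. It lay at 1.64, 1.35 and 1.35 in EAAE E2, 0.49, 1.67 and 1.58 in EAAE saline, 5.76, 5.89 and 5.44 in WT E2 and 3.71, 3.97 and 4.34 in WT saline. The groups of the genotypes were far apart under either treatment, and the E2 and saline arrays overlapped in EAAE and not in WT. The change after E2 was 1.69 in WT (SE 0.29, adjusted p = 0.00075) and 0.20 in EAAE (adjusted p = 0.775), with a difference of -1.49 (adjusted p = 0.0163). Col6a4 was 4.25 lower in EAAE than in WT after E2, a 19.0-fold difference (SE 0.29, adjusted p = 8.79e-07), and 2.76 lower under saline (adjusted p = 8.9e-05). The probe covers chromosome 9 from 105708073 to 105708132 (mm7, minus strand), and it is the only tested probe of this gene.

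Col6a2 followed the same order of groups, with 0.73, 0.22 and 0.89 in EAAE E2, 0.39, 0.60 and 0.59 in EAAE saline, 2.28, 2.38 and 2.01 in WT E2 and 1.35, 1.11 and 1.33 in WT saline. It rose by 0.95 in WT (SE 0.17, adjusted p = 0.000925; 1.72 on a dimmer probe), and its change of 0.09 in EAAE differed from that by -0.87 (adjusted p = 0.0164). Col6a1 rose least, by 0.35 in WT (SE 0.12, adjusted p = 0.0304). This call was lost without WT saline 1, WT saline 2, WT E2 1 or WT E2 2 and with quantile scaling, with an adjusted p of up to 0.14, and the responses were not called different (-0.18, adjusted p = 0.412). After E2 the 4 tested type VI genes were lower in EAAE than in WT by 0.85 to 4.25, and under saline by 0.66 to 2.76, and all 8 of these differences were called.

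Col8a2, a short chain that forms hexagonal networks with Col8a1, had the largest rise of any collagen gene in WT. Its values were 0.55, 0.39 and 0.49 in EAAE E2, 0.53, 0.73 and 0.72 in EAAE saline, 1.73, 2.39 and 1.96 in WT E2 and -0.01, -0.95 and -0.56 in WT saline. The EAAE arrays lay between the WT E2 arrays and the WT saline arrays under either treatment, without overlap. Col8a2 rose by 2.54 in WT (SE 0.22, adjusted p = 9.24e-06), a 5.80-fold change, and stood at -0.19 in EAAE (adjusted p = 0.72). The difference of the responses was -2.72 (SE 0.31, adjusted p = 0.000131). Its order between genotypes turned with treatment: Col8a2 was 1.55 lower in EAAE than in WT after E2 (adjusted p = 0.000157) and 1.17 higher under saline (adjusted p = 0.00325). The second of these was lost with a term for position on the slide. Its partner Col8a1 stood at 0.03 in EAAE and -0.46 in WT after E2, neither called. The probe of Col8a2 lies on chromosome 4 at 125758844 to 125758903 (mm7, plus strand).

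Upstream sequence is shown for the pair of genes with the smallest p in the WT response, since the receptor studied differs in DNA binding. The 250 bases before the annotated start come from RefSeq (GRCm38.p6), 5′ to 3′ on the gene's strand, for Col8a2 at chr4:126286544-126286793 (plus strand) and for Col6a3 at chr1:90843972-90844221 (minus strand). Capitals mark GC boxes (GGGCGG on either strand), of which Col8a2 has 4, some overlapping, and Col6a3 none.
Col8a2: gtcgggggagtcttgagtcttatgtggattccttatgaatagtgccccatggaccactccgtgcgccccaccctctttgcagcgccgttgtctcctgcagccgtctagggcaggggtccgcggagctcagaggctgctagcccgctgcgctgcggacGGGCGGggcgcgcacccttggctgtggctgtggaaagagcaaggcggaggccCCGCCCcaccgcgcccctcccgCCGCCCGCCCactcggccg
Col6a3: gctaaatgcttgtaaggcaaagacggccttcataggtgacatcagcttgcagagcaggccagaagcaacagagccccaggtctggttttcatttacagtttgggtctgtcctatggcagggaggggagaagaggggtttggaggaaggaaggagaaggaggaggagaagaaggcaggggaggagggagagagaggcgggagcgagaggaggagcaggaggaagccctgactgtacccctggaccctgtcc

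The windows were searched on both strands for the palindromic estrogen response element (the half-site GGTCA, 3 bases and its reverse complement), the half-site alone and the AP-1 element TGANTCA, and neither window held one. Of the 38 tested collagen genes 29 were in the promoter table, with 31 promoters. The full element stood in 0 of these 31, against 0.0639% of all 32851 promoters, and the half-site in 35.5%, against 35.2% of all. For so rare an element 31 promoters are too few to tell 0 from the share of all. AP-1 elements stood in 3.23% (Col6a1 alone), against 6.75% of all, GC boxes in 64.5%, against 32.7%, and TATAAA in 12.9%, against 12.4%. Each full element also holds half-sites on both strands. A match is a run of letters, and its absence from 250 bases says nothing about binding elsewhere.

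The fibrillar genes split by chain after E2 in WT: Col5a1 and Col27a1 rose, and Col3a1, Col2a1, Col24a1 and Col5a2 fell. Col3a1, the chain of type III collagen that is abundant in stretchy tissue, lay at 5.49, 4.56 and 4.62 in EAAE E2, 4.46, 4.50 and 4.57 in EAAE saline, 4.06, 4.09 and 3.62 in WT E2 and 5.44, 4.89 and 5.01 in WT saline. The WT E2 arrays were the lowest of the 12. Col3a1 fell by 1.19 in WT (SE 0.24, adjusted p = 0.00229) and stood at 0.38 in EAAE (adjusted p = 0.465), where 1 array, EAAE E2 1, lay above the rest of its group. The responses differed by 1.57 (adjusted p = 0.00534), a call that held when any array was left out. A second probe gave -1.51 in WT, and the dimmest was not well above background on any WT E2 array.

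Type I collagen, the main protein of thick fibres, is built from Col1a1 and Col1a2. Col1a1 lay at 4.55, 2.27 and 3.71 in EAAE E2, 3.19, 3.80 and 3.99 in EAAE saline, 3.51, 3.62 and 3.11 in WT E2 and 5.12, 4.22 and 4.17 in WT saline. The WT groups did not overlap, yet the spread within EAAE E2 was wider than the WT change of -1.09 (SE 0.50, adjusted p = 0.0924), which was not called. Its other probes gave -1.14 and -1.26 in WT, and the dimmest of them passed the threshold (adjusted p over all probes = 0.00719). That dimmest probe was well above background on 2 of 3 WT E2 arrays and 2 of 3 EAAE E2 arrays. Col1a2 lay at 5.62, 4.35 and 4.95 in EAAE E2, 4.90, 5.13 and 5.21 in EAAE saline, 5.68, 5.57 and 5.33 in WT E2 and 6.38, 5.89 and 6.24 in WT saline. Its WT groups did not overlap either, with a change of -0.65 that was not called (SE 0.27, adjusted p = 0.0691). A dim Col1a2 probe, above background on 1 of 3 WT E2 arrays and 2 of 3 EAAE E2 arrays, gave -1.30 in EAAE (adjusted p = 0.0242) and -2.0 in WT (adjusted p = 4.06e-05).

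Type V collagen starts and thins fibrils, and its chains moved apart in WT. Col5a1 lay at 2.16, 1.92 and 1.85 in EAAE E2, 1.78, 2.02 and 2.27 in EAAE saline, 2.98, 3.22 and 2.79 in WT E2 and 2.38, 1.92 and 2.18 in WT saline. Only the WT E2 arrays stood apart, with a rise of 0.84 (SE 0.17, adjusted p = 0.00189; 1.15 on a dimmer probe), against -0.05 in EAAE and a difference of -0.89 (adjusted p = 0.0139). Its partner Col5a2 fell by 0.60 in WT (adjusted p = 0.049), a call lost without any 1 of 8 arrays, namely WT saline 1, all WT E2 arrays, all EAAE saline arrays and EAAE E2 3 (adjusted p of up to 0.181), and stood at 0.40 in EAAE. The remaining type V chain, Col5a3, stood at 0.47 in WT (adjusted p = 0.0536) and 0.15 in EAAE. The genes Col3a1 and Col5a2 are neighbours on chromosome 1, with probes at 45585395 to 45585454 and 45613427 to 45613486 (mm7).

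Among the scarcer fibrillar genes, Col24a1 fell by 1.07 in WT (SE 0.28, adjusted p = 0.00854), against 0.22 in EAAE. The responses differed by 1.29 (adjusted p = 0.0252), a call lost without any 1 of 6 arrays (adjusted p of up to 0.0589). Col27a1 rose by 0.33 in WT (adjusted p = 0.0282), a call lost without WT saline 1, WT E2 2 or WT E2 3 (adjusted p of up to 0.102). It stood at 0.19 in EAAE on the brightest of its 3 probes, but at -0.01 and -0.76 on the others (adjusted p over all probes = 0.0351 for the last). Col11a1 stood at 0.32 in EAAE and -0.23 in WT, neither called. Its responses differed by 0.55 (adjusted p = 0.0214), a call lost without WT E2 2 or WT E2 3 (adjusted p of up to 0.0662). Col11a2, at 0.08 in EAAE and 0.03 in WT, did not pass the test.

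Col2a1, the chain of cartilage collagen, depends on the probe. On its brighter probe the values were 1.01, -0.04 and -0.17 in EAAE E2, -0.21, -0.10 and 0.15 in EAAE saline, -0.63, -0.64 and -1.04 in WT E2 and 0.82, 0.20 and 0.34 in WT saline. This probe fell by 1.22 in WT (SE 0.29, adjusted p = 0.00538), stood at 0.32 in EAAE, and had responses that differed by 1.55 (adjusted p = 0.0138). A dimmer probe, 20 bases further upstream in the transcript, was also well above background on all 12 arrays but gave 0.22 in WT and 0.37 in EAAE, neither called. Both are 60 bases long, share 40 of them, and lie on the minus strand of chromosome 15 (mm7), the brighter at 97979237 to 97979296 and the dimmer at 97979257 to 97979316. They are printed as the files give them, with the 20 bases that each has alone in capitals, because the direction of the Col2a1 change rests on which is used.
Col2a1, brighter probe: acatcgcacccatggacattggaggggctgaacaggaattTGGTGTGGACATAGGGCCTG
Col2a1, dimmer probe: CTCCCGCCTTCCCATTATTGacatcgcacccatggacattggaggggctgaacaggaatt

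Taking the 11 fibrillar genes as a class, none was called in EAAE (1 at an unadjusted p under 0.05 in limma, median 0.19), and 2 were higher and 4 lower after E2 in WT (median -0.60). The WT share, 54.5%, is near the 49.4% of all genes, of which 19.5% were higher and 29.9% lower. All 7 markers of uterine stroma (Pdgfra, Hand2, Dcn, Lum, Thy1, Vim and Nr2f2) fell after E2 in WT, with a median of -0.74, and 1 rose in EAAE (median 0.31). The summed linear level of these markers, in units of the array's 75th percentile, was 381.4 to 410.4 in EAAE E2, 330.6 to 350.7 in EAAE saline, 286.4 to 326.1 in WT E2 and 416.3 to 434.7 in WT saline. Some markers of other cells fell in WT too: all 7 of adipocytes (median -3.18) and 5 of 7 of endothelium (median -0.35). For macrophages 2 of 7 fell (median -0.61), a share near the 29.9% of all genes. In EAAE none of these was called (1 adipocyte marker and 0 of the others at an unadjusted p under 0.05 in limma), with medians of 0.03, 0.08 and 0.52. Epithelial markers went both ways in WT. Elf3 and Krt7 were higher on every WT E2 array than on any WT saline array, and Foxa2, Epcam, Cdh1 and Krt18 lower. Krt8 and Krt19 overlapped. Of all genes 24.7% were apart and higher and 39.8% apart and lower. None of the 7 smooth muscle markers was called in either response (0 at an unadjusted p under 0.05 in limma). In WT the tested type VI genes, Col5a1 and Col27a1 rose, while the stromal markers fell. The part of any of these markers in the collagen values was not tested.

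**Figure D2:**
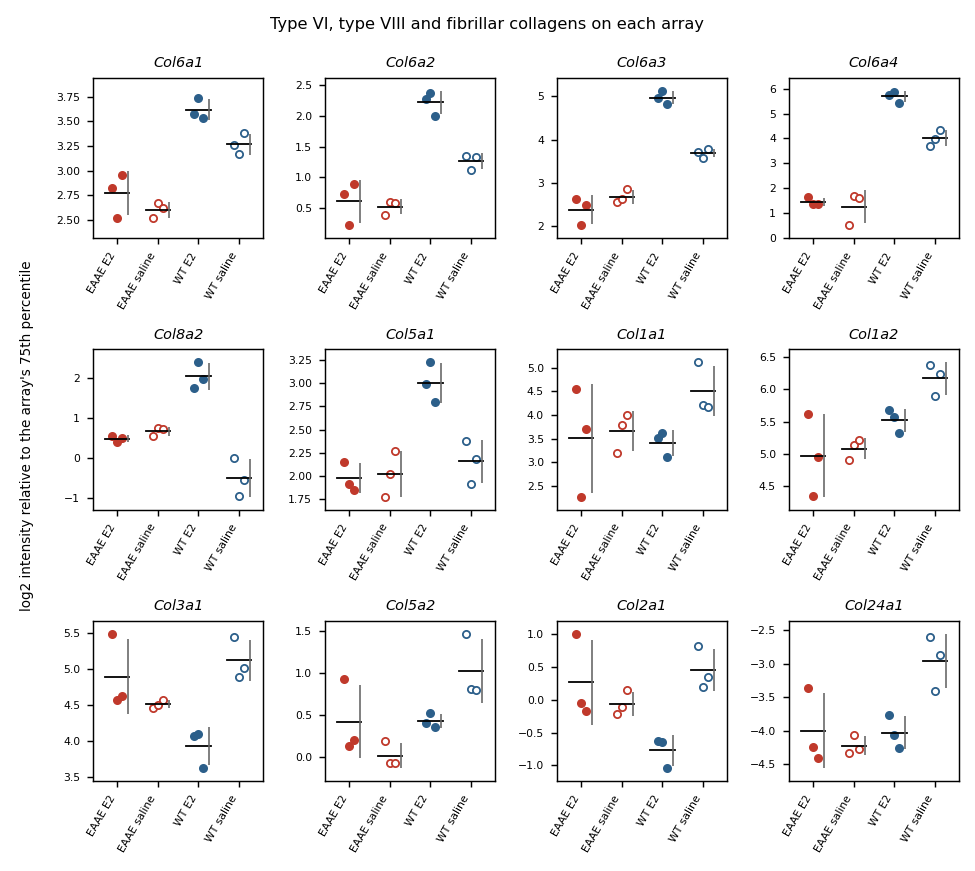
Log2 intensity relative to the array's 75th percentile (y axis, own scale in each panel) of 12 type VI, type VIII and fibrillar collagen genes on each of the 12 arrays, by group (x axis), with the mean (black line) and SD (grey bar) of 3 mice. The WT E2 arrays stand above the rest for Col6a1 to Col6a4, Col8a2 and Col5a1 and below the WT saline arrays for the remaining genes, and EAAE E2 1 is the highest EAAE array for Col1a1, Col1a2, Col3a1, Col5a2, Col2a1 and Col24a1.

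None of the 8 basement membrane genes was called after E2 in EAAE or in WT, where 1.40% and 49.4% of all genes were (limma, 1 in EAAE and 2 in WT at an unadjusted p under 0.05). Their changes ran from -0.12 to 0.42 in EAAE and from -0.50 to 0.36 in WT. Between genotypes most of them were called, in opposite directions for different pairs of type IV chains. The common pair Col4a1 and Col4a2, which build the network found in nearly all basement membranes, was lower in EAAE, and the pair Col4a5 and Col4a6, which build the network known from smooth muscle and some epithelia, was higher.

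Col4a1 lay at 1.62, 0.96 and 1.59 in EAAE E2, 1.34, 1.44 and 1.24 in EAAE saline, 2.16, 2.35 and 1.98 in WT E2 and 2.14, 2.02 and 2.03 in WT saline. Col4a2 lay at 1.76, 1.05 and 1.69 in EAAE E2, 1.29, 1.46 and 1.33 in EAAE saline, 2.23, 2.47 and 2.07 in WT E2 and 2.44, 2.30 and 2.37 in WT saline. For both genes every EAAE array was below every WT array. Col4a1 was 0.77 lower in EAAE than in WT after E2 (SE 0.17, adjusted p = 0.00239) and 0.73 lower under saline (adjusted p = 0.00848). Col4a2 was 0.76 lower after E2 (SE 0.17, adjusted p = 0.00363) and 1.01 lower under saline (adjusted p = 0.00186), and a second probe of each gene was called the same way. These genes stand head to head on chromosome 8 in RefSeq (GRCm38.p6), with starts annotated at 11312826 for Col4a1 (minus strand) and 11312805 for Col4a2 (plus strand).

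Col4a6 lay at 3.04, 3.26 and 3.29 in EAAE E2, 3.13, 3.34 and 3.34 in EAAE saline, 1.72, 1.80 and 1.94 in WT E2 and 1.81, 2.06 and 1.91 in WT saline. Col4a5 lay at -0.77, -0.93 and -1.01 in EAAE E2, -0.77, -1.11 and -0.49 in EAAE saline, -2.23, -2.22 and -2.16 in WT E2 and -1.93, -1.81 and -1.95 in WT saline. The genotypes were fully apart for both genes. E2 gave no call for either, at -0.07 in EAAE and -0.10 in WT for Col4a6 and -0.12 in EAAE and -0.31 in WT for Col4a5. Col4a6 was 1.38 higher in EAAE after E2 (SE 0.11, adjusted p = 2.32e-06) and 1.35 higher under saline (SE 0.11, adjusted p = 1.75e-05), a 2.54-fold difference, and its other probes were called higher too. For Col4a5 the differences were 1.30 after E2 (adjusted p = 1.82e-05) and 1.11 under saline (adjusted p = 0.000248). This pair also stands head to head, on chromosome X with 1343 bases between the annotated starts. The upstream 250 bases of each are shown because the genes share this stretch of genome and differed together (RefSeq, GRCm38.p6, 5′ to 3′ on the gene's strand, GC boxes in capitals). They lie at chrX:141474077-141474326 (minus strand) for Col4a6 and chrX:141475169-141475418 (plus strand) for Col4a5.
Col4a6: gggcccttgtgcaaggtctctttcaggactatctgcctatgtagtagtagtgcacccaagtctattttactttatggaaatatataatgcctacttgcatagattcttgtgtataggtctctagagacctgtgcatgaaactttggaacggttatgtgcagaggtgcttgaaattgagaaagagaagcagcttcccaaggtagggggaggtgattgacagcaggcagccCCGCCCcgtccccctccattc
Col4a5: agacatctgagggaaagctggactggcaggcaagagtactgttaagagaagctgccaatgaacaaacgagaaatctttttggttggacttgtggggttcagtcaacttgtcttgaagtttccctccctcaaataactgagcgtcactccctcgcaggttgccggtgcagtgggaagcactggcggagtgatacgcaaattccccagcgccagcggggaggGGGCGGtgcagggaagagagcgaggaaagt

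The chains Col4a3 and Col4a4, which pair with Col4a5 in the kidney filter and few other sites, were less settled. Col4a3 was 0.50 higher in EAAE under saline (adjusted p = 0.0286), a call lost without either of WT saline 1 and 3 or EAAE saline 1 and 3 (adjusted p of up to 0.683 over all alternatives), and 0.02 after E2. Col4a4 stood at 0.38 after E2 and -0.54 under saline on its brighter probe, neither called, while its dimmer probe was called higher in EAAE, at 0.87 and 0.61. Col15a1 and Col18a1 join basement membranes to the tissue beneath, and Col18a1 also holds the fragment endostatin.

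Col15a1 lay at -0.16, -0.86 and -0.20 in EAAE E2, -0.75, -0.54 and -0.84 in EAAE saline, -0.37, -0.30 and -0.28 in WT E2 and 0.25, 0.00 and -0.04 in WT saline. It was 0.78 lower in EAAE under saline (adjusted p = 0.00754), and its responses to E2 (0.30 in EAAE and -0.38 in WT) differed by 0.69 (adjusted p = 0.0491). That last call was lost without any 1 of 10 arrays and with array-median or quantile scaling (adjusted p of up to 0.107). A dimmer probe gave 0.13 in EAAE and -0.43 in WT, the second of these called (adjusted p over all probes = 0.0333). Col18a1 lay at 4.02, 4.13 and 4.18 in EAAE E2, 3.65, 4.01 and 3.85 in EAAE saline, 4.33, 4.42 and 4.48 in WT E2 and 4.38, 4.45 and 4.42 in WT saline. Every EAAE array was below every WT array of the same treatment. Col18a1 was 0.30 lower in EAAE after E2 (adjusted p = 0.0239), a call lost without WT E2 2, WT E2 3 or EAAE E2 1 (adjusted p of up to 0.191), and 0.58 lower under saline (adjusted p = 0.00158).

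**Figure D3:**
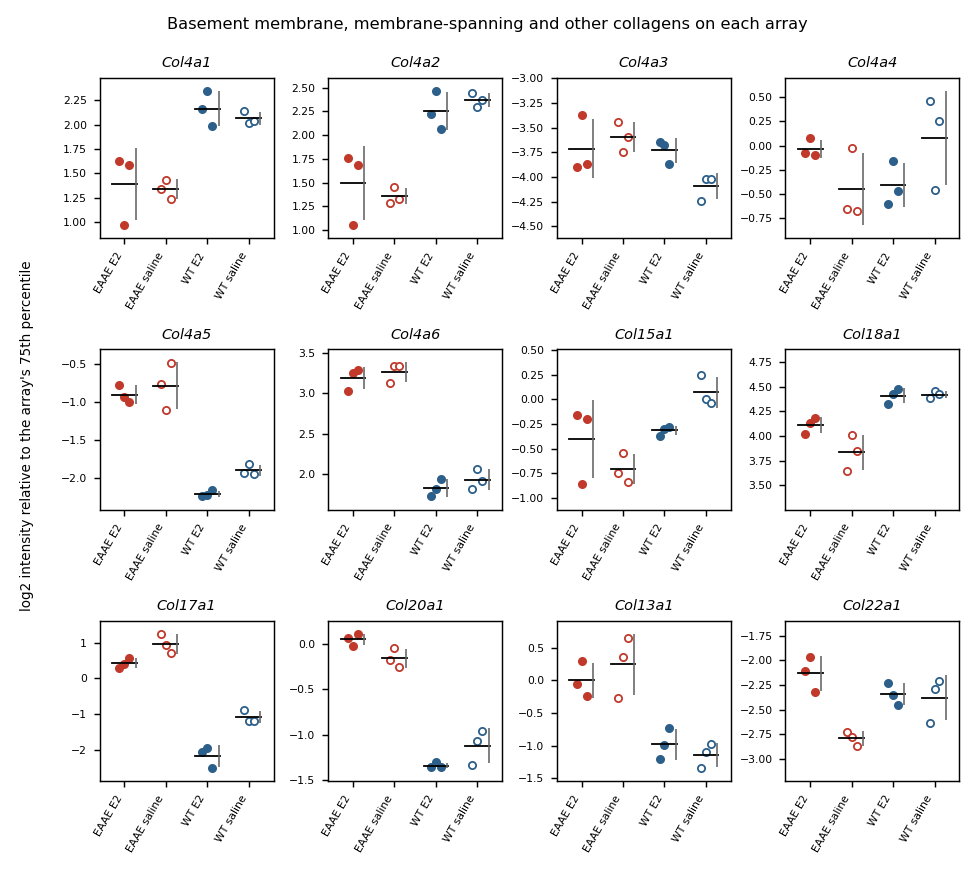
Log2 intensity relative to the array's 75th percentile (y axis, own scale in each panel) of the 8 basement membrane collagen genes and of Col17a1, Col20a1, Col13a1 and Col22a1 on each array, by group (x axis), with the mean (black line) and SD (grey bar) of 3 mice. EAAE arrays stand below WT arrays for Col4a1 and Col4a2 and above them for Col4a5, Col4a6, Col17a1, Col20a1 and Col13a1.

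Collagens that span the cell membrane were higher in EAAE. Col17a1, which anchors epithelial cells to the basement membrane in hemidesmosomes, lay at 0.30, 0.41 and 0.58 in EAAE E2, 1.26, 0.94 and 0.71 in EAAE saline, -2.08, -1.95 and -2.53 in WT E2 and -0.88, -1.19 and -1.19 in WT saline. None of the 4 groups overlapped another. Col17a1 was 2.62 higher in EAAE after E2 (SE 0.18, adjusted p = 9.38e-07), a 6.13-fold difference, and 2.06 higher under saline (adjusted p = 2.9e-05). E2 lowered it in WT by 1.10 (SE 0.18, adjusted p = 0.000557), with -0.54 in EAAE (adjusted p = 0.175), and the responses were not called different (0.56, adjusted p = 0.107). A second probe was called the same way in WT and between genotypes. Col13a1, a membrane collagen of cell contacts, was 0.98 higher in EAAE after E2 and 1.39 higher under saline, and Col23a1 was 0.47 and 0.42 higher, all 4 differences called. The saline call of Col23a1 was lost without any 1 of 4 arrays (adjusted p of up to 0.537). Col25a1 stood at 0.26 after E2 and 0.04 under saline and was not called.

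Epithelial markers differed by genotype, most of them higher in EAAE under saline and 4 of 8 after E2. Of the 8 (Krt7, Krt8, Krt18, Krt19, Cdh1, Epcam, Elf3 and Foxa2), 4 were higher and 2 lower in EAAE after E2, and 6 were higher and 1 lower under saline, with medians of 0.50 and 0.80. For these and the markers below, the shares of all genes were 33.0% higher and 24.8% lower after E2. Under saline they were 13.7% and 15.8%. The summed linear level of the epithelial markers was 197.0 to 231.6 in EAAE E2, 199.3 to 244.9 in EAAE saline, 127.0 to 134.5 in WT E2 and 128.8 to 149.3 in WT saline. Foxa2, which marks glands, was the exception under saline and was lower in EAAE by 2.39 (adjusted p = 0.000244). The keratin Krt18 was 0.81 higher under saline and the adhesion gene Cdh1 also 0.81. Of 7 smooth muscle markers 0 were higher and 5 lower in EAAE after E2 (median -0.64), and 0 and 1 under saline (median -0.23). Stromal markers were higher for 6 of 7 after E2 (median 0.69), and for 2, with 1 lower, under saline. All 7 adipocyte markers were higher after E2 (median 3.69) and none was called under saline (0 at an unadjusted p under 0.05 in limma, median 0.40). Of 7 macrophage markers 1 was higher after E2 and 3 were lower under saline (medians 0.39 and -1.07). The part of these cell types in the collagen differences was not tested.

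Collagens that sit on the surface of fibrils gave the only call in the EAAE response. Col22a1, a collagen of tissue junctions, lay at -2.11, -1.96 and -2.32 in EAAE E2, -2.72, -2.78 and -2.87 in EAAE saline, -2.23, -2.36 and -2.45 in WT E2 and -2.64, -2.29 and -2.21 in WT saline. The EAAE groups did not overlap, and Col22a1 rose there by 0.66 (SE 0.13, adjusted p = 0.0414), against 0.03 in WT, with a difference of 0.63 (adjusted p = 0.0216). The EAAE call was lost without any 1 of 9 arrays and with slide as a block (adjusted p of up to 0.352). A dimmer probe gave 0.33 in EAAE and 0.35 in WT, neither called, so the difference between responses did not appear there.

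Col20a1 lay at 0.07, -0.02 and 0.10 in EAAE E2, -0.18, -0.04 and -0.25 in EAAE saline, -1.35, -1.30 and -1.36 in WT E2 and -1.34, -1.06 and -0.95 in WT saline. Every EAAE array was above every WT array, by 1.39 after E2 (SE 0.10, adjusted p = 1.6e-06) and 0.96 under saline (adjusted p = 0.000103). Col9a2, a chain best known from cartilage fibrils, was 1.24 higher in EAAE after E2 and 0.71 higher under saline. Its fellow chain Col9a3 went the other way, at -0.50 after E2, not called, and 0.75 lower under saline (adjusted p = 0.0232). Col16a1, found near fibrils and basement membranes, was 0.68 lower after E2 and 0.79 lower under saline (adjusted p = 0.00427 and 0.00479). Its dimmer probe gave 0.01 after E2. Col12a1 was above background on 8 of 12 arrays and, like Col14a1 and Col26a1, was called in no comparison. Col7a1, which makes the anchoring fibrils under epithelia, was 0.53 higher in EAAE after E2 (adjusted p = 0.00273) and stood at 0.18 under saline.

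Over all collagen genes, genotype gave more calls than E2. After E2, 10 of 38 were higher and 14 lower in EAAE than in WT (63.2%, against 57.8% of all genes, of which 33.0% were higher and 24.8% lower). Under saline, before any hormone was given, 9 were higher and 18 lower (71.1%, against 29.5% of all genes, of which 13.7% were higher and 15.8% lower). The saline share was thus above that of all genes, and the share after E2 was near it. The median difference was -0.08 after E2 and -0.56 under saline, against 0.10 and -0.02 over all genes. Groups that did not overlap were higher in EAAE for 11 collagen genes and lower for 14 after E2, against 36.6% and 27.6% of all genes. Under saline they were higher for 10 and lower for 22, against 22.4% and 24.7% of all genes.

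By class, the fibrillar genes had 2 higher and 5 lower after E2 and 0 higher and 6 lower under saline, with all 11 values below 0 under saline. Basement membrane genes had 2 and 3 after E2 and 3 and 4 under saline, and the others had 6 and 6 after E2 and 6 and 8 under saline. Of single fibrillar genes, Col1a2 (-1.09, adjusted p = 0.0124), Col24a1 (-1.26, adjusted p = 0.0066) and Col5a2 (-1.01, adjusted p = 0.00775) were lower in EAAE under saline and stood at -0.55, 0.02 and 0.00 after E2. Col11a1 lay at -3.49, -3.70 and -3.63 in EAAE E2, -3.89, -4.04 and -3.87 in EAAE saline, -3.11, -3.32 and -3.34 in WT E2 and -2.81, -3.17 and -3.11 in WT saline, and was 0.35 lower in EAAE after E2 and 0.90 lower under saline. Col3a1 (0.97) and Col2a1 (1.04) were the 2 fibrillar genes higher in EAAE after E2, though the dimmer Col2a1 probe gave -0.06, not called, and both calls were lost with a position term (adjusted p of up to 0.258 and 0.394). The comparisons of EAAE with WT share arrays with the E2 comparisons, so these values are not independent of the responses above.

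**Figure D4:**
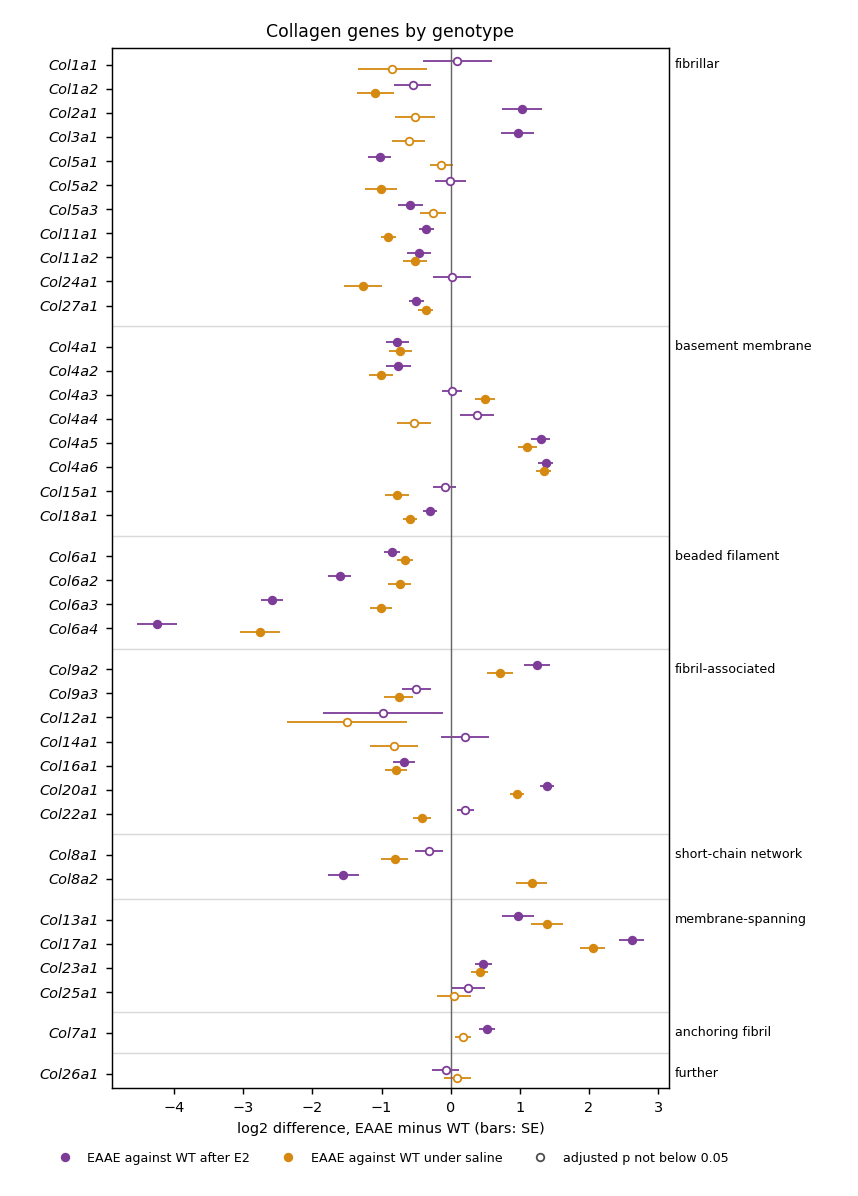
Log2 difference between genotypes (x axis, EAAE minus WT, n = 3 mice per group, bars are SE) of the 38 tested collagen genes, grouped by type, after E2 (purple) and under saline (orange). Filled points passed the threshold: Col6a4 lies lowest, at -4.25 after E2 and -2.76 under saline, and Col17a1 highest, at 2.62 and 2.06.

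How firm the genotype calls and the responses to E2 are depends on the layout of the arrays. Each of the 3 slides held 4 arrays, position 4 was an EAAE E2 array on each of them, and both saline groups were on the same slide only once. With position as a linear term 16 collagen genes were called under saline, and with slide and position together 1 was lower and 2 higher (Col6a4, Col17a1 and Col4a6). Calls over all 19301 genes fell too, from 2636 higher and 3057 lower to 1481 and 1507 with position. With both terms 218 higher and 198 lower were left over all genes. After E2, slide and position together left 4 higher and 7 lower. Within slides, every gene called between genotypes kept its sign, over 3 slides after E2 and over the 1 slide under saline. This reuses the arrays that gave the calls, and a gene whose groups do not overlap must keep its sign. Under saline it rests on 1 array of each genotype. EAAE E2 was at position 4 on each slide, so the sign cannot separate genotype from position. After E2, position alone left 5 higher and 12 lower, against 10 and 14. Over all genes it left 4158 higher and 3149 lower after E2, against 6371 and 4778. Slide and position together left 2862 higher and 2335 lower over all genes. No WT E2 array was at position 4, so position and genotype overlap more after E2 than under saline, and under neither treatment can they be fully told apart. The EAAE saline arrays were at positions 2 and 3, so the EAAE response cannot be told apart from position either. The difference of the responses draws on the same arrays. With position, 0 collagen genes were called in EAAE and 11 for the difference, against 1 and 13. Over all genes 12 were higher and 12 lower in EAAE, against 133 and 138. In WT the saline arrays were at positions 1 and 2 and the E2 arrays at 1, 2 and 3. There position left 5 higher and 4 lower collagen genes, and slide and position 4 and 5, against 7 and 5. Over all genes the WT response kept 3285 higher and 4943 lower with position and 2543 and 3731 with both, against 3757 and 5771. For 7 genes the saline call was lost without 1 array (Col4a3, Col9a2, Col9a3, Col11a2, Col22a1, Col23a1 and Col27a1), and for 4 the call after E2 (Col5a3, Col11a1, Col11a2 and Col18a1). The probes of Col11a2 disagreed in sign between genotypes: the brighter gave -0.46 after E2 and -0.51 under saline, both called, and the dimmer 0.75 and 0.63, neither called.

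Genes that modify, fold and finish collagen chains were grouped by role. Of 20 tested genes of modification and folding, 5 rose and 5 fell after E2 in WT and none was called in EAAE (3 at an unadjusted p under 0.05 in limma). The 10 of 20 called in WT are near the 49.4% of all genes. The rises were large for enzymes of the endoplasmic reticulum: P4ha2, a prolyl hydroxylase subunit that stabilizes the collagen helix, lay at 1.08, 0.71 and 1.10 in EAAE E2, 1.60, 1.38 and 1.22 in EAAE saline, 3.98, 4.44 and 4.23 in WT E2 and 1.86, 1.75 and 1.85 in WT saline. It rose by 2.39 in WT (SE 0.15, adjusted p = 9.55e-07), against -0.44 in EAAE, and the responses differed by -2.83 (adjusted p = 8.74e-06). The lysyl hydroxylase Plod1 (1.37), the collagen galactosyltransferase Colgalt2 (1.84) and the prolyl isomerase Fkbp14 (1.90) rose in WT too and stood at 0.11, -0.14 and -0.09 in EAAE. For P4ha2, Plod1, Colgalt2 and Fkbp14 the WT E2 arrays were the highest of the 12, as for the type VI genes, and all 4 were lower in EAAE than in WT after E2, by 2.29 to 3.49.

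Of 16 tested genes of cross-linking and fibril assembly, 0 rose and 8 fell after E2 in WT (median -0.43), none was called in EAAE (3 at an unadjusted p under 0.05), and 6 of the responses were higher in EAAE. The 8 of 16 called in WT are near the 49.4% of all genes, of which 19.5% were higher and 29.9% lower. Responses were higher in EAAE for 22.7% of all genes. Lox, the oxidase that starts cross-links, lay at -0.42, -0.80 and -0.35 in EAAE E2, -0.91, -1.19 and -1.56 in EAAE saline, -1.13, -1.20 and -1.56 in WT E2 and -0.33, -0.11 and 0.15 in WT saline. It fell by 1.20 in WT (SE 0.20, adjusted p = 0.000613), and its values after E2 were higher in EAAE than those under saline, by 0.69 (adjusted p = 0.122). The fibril-spacing proteoglycan Lum fell by 0.90 in WT and stood at 0.39 in EAAE. Under saline 1 gene of this list was higher and 8 were lower in EAAE, among them Lox (-1.12) and Lum (-1.39). Of all genes 13.7% were higher and 15.8% lower under saline. Lum and Dcn are also among the stromal markers above.

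**Figure D5:**
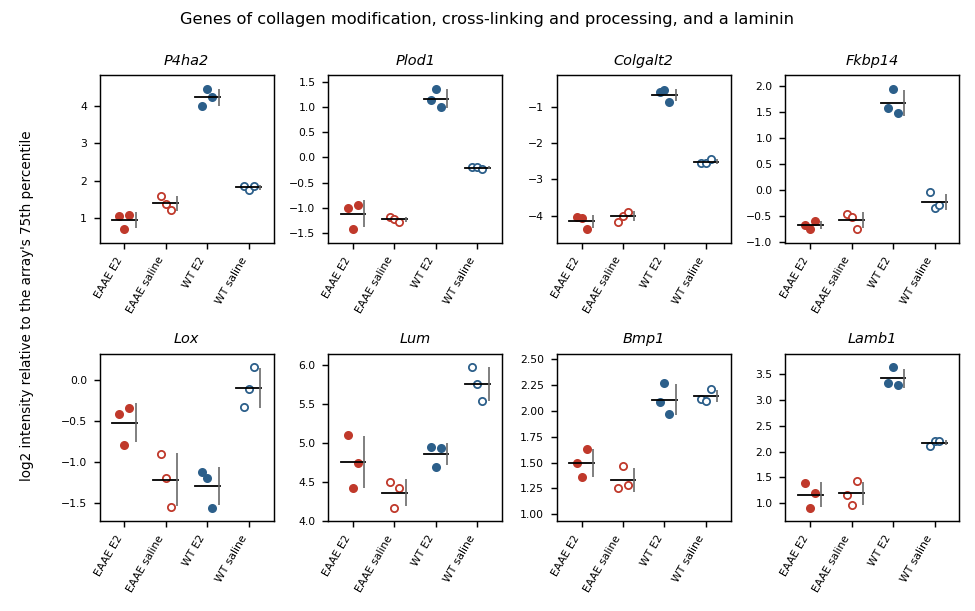
Log2 intensity relative to the array's 75th percentile (y axis, own scale in each panel) of 8 genes that act on or beside collagen, on each array, by group (x axis), with the mean (black line) and SD (grey bar) of 3 mice. WT E2 arrays stand highest for P4ha2, Plod1, Colgalt2, Fkbp14 and Lamb1, and below the WT saline arrays for Lox and Lum.

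Of 13 tested genes of export and propeptide processing, 3 rose and 1 fell in WT, and between genotypes they went both ways. Bmp1, the protease that trims fibrillar procollagens, was 0.61 lower in EAAE after E2 and 0.81 lower under saline. Sec24d was 0.41 lower after E2, and Adamts2 and Adamts3 were 1.14 and 0.73 lower under saline. Tll1 was 3.81 higher after E2 and 2.12 higher under saline, and Pcolce was 1.55 higher after E2. The WT E2 arrays of Tll1, at -5.77, -7.40 and -6.30, were below the lowest value well above background. Among 9 collagen receptors, the integrin chain Itga1 (-1.53) and the tyrosine kinase Ddr2 (-0.49) fell in WT and 1 rose, and none was called in EAAE. These shares in WT, 30.8% of export genes and 33.3% of receptors, were below the 49.4% of all genes. Of 13 genes of collagen breakdown, 2 rose and 4 fell in WT, and under saline 1 was higher and 7 were lower in EAAE. The breakdown share was 46.2% in WT, near that of all genes, and 61.5% under saline, against 29.5% of all genes. Of 20 partners of type IV collagen in basement membranes, 5 rose and 4 fell in WT and 1 rose in EAAE, and by genotype 10 were higher and 7 lower in EAAE after E2 and 4 higher and 5 lower under saline. The shares of these partners were 45.0% in WT, 85.0% after E2 and 45.0% under saline, against 49.4%, 57.8% and 29.5% of all genes. Lamb1, a laminin chain common in vessels and stroma, was 2.26 lower in EAAE after E2 and 0.98 lower under saline, as Col4a1 and Col4a2 were. Lamb3 and Lama3, chains of the laminin that Col17a1 meets in hemidesmosomes, were 1.64 and 1.49 higher after E2 and 1.85 and 1.27 higher under saline.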

How the data were processed

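Per the file headers, the authors scanned single-colour arrays and deposited a processed signal, a linear intensity corrected for background and spatial trends and not scaled between arrays. Per the submitters' processing notes, Agilent Feature Extraction 9.5 was used. The deposited series table held the same intensity on all 45018 spots of each array (column medians 147.7 to 225.4), so it is linear, uncentred and of the same direction.

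Per the labels, cRNA came from 500 ng of total RNA of 1 uterus. The intensities were taken to log2, less each array's 75th percentile. Control and outlier spots (1 to 16 per array) were left out, 3 to 5 saturated spots were kept, and spots of a probe were averaged. Median intensity per array was 162.5 to 249.5, and precision is limited by the number of mice. The filter on dim probes kept 29017 of 41174, those that every array of some group measured well above background. The brightest probe stood for a gene, which left 19301 genes. Symbols came from a RefSeq table (GRCm38.p6, names and promoter sequences only), with 4 collagen probes named through it alone. Probe coordinates are those of the files (mm7).

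A single limma 3.58.1 model in R 4.3.3 (lmFit, then eBayes) held the 4 groups, and its 2-sided p-values were adjusted by Benjamini-Hochberg across genes, with a threshold of 0.05. The fit was tested on simulated data. Tables and plots used Python 3.11.15. A further 16 alternatives were run, and each array was left out in turn. Values of every array are given for Col1a1, Col1a2, Col3a1, Col4a1, Col4a2, Col15a1, Col18a1 and, in each comparison, the collagen genes with the smallest p, and up to 4 genes with the smallest p from each other list. The collagen classes, the other lists and the members were chosen with earlier results of these data known.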

Additional observations from a re-analysis of the deposited data

Results flagged for a closer look

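The E2 response differed between EAAE and WT, by the test of the difference itself, for 13 collagen genes (EAAE minus WT, log2). The response was lower in EAAE for Col8a2 (-2.72), Col6a3 (-1.58), Col6a4 (-1.49), Col5a1 (-0.89) and Col6a2 (-0.87), each of which rose in WT. It was higher in EAAE for Col3a1 (1.57), Col2a1 (1.55), Col24a1 (1.29) and Col5a2 (1.0), which fell in WT, and for Col15a1 (0.69), Col22a1 (0.63), Col11a1 (0.55) and Col20a1 (0.43), which were not called in WT. On the dimmer probe of Col2a1 the difference was 0.15 and on that of Col22a1 -0.02.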

How the results depend on the processing

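With 1 value per gene, directions held in the alternatives run for the collagen genes called, except Col11a2, whose genotype difference turned to 0.15 after E2 and 0.059 under saline when the probes of a gene were averaged. Probe by probe, another probe had the other sign for Col2a1 in WT, Col22a1 for the difference, Col2a1, Col11a2 and Col16a1 after E2 and Col11a2 under saline. Called under every alternative run for the gene and without each of the 12 arrays were 8 of the 12 genes called in WT, 0 of 1 in EAAE, 7 of 13 for the difference of the responses, 10 of 24 for genotype after E2 and 3 of 27 under saline. Counts of called genes ranged, with 1 array left out, over 9 to 17 in WT, 0 to 1 in EAAE, 8 to 18 for the difference, 21 to 24 after E2 and 21 to 29 under saline. The 8 came without WT E2 2 or WT E2 3, and the 0 without WT saline 2, any WT E2 array, any EAAE saline array, EAAE E2 1 or EAAE E2 2. Counts over all probes are of 66 probes, against 38 genes in the main fit, so a higher count there need not be a higher share. Counts moved by over 1.5 times as follows. In WT they were 23 over all probes (66 tested) and 19 with array weights, against 12. In EAAE they were 3 over all probes and 0 without the filter on dim probes, with probes averaged, with slide as a block, with position, with both, with array weights, with the arrays of the comparison alone and with the replicate block, against 1 (Col22a1, limma). For the difference the count was 21 over all probes, against 13. After E2 it was 40 over all probes and 11 with slide and position, against 24. Under saline it was 16 with position and 3 with slide and position, against 27. Calls between genotypes over all genes also fell with these terms. The fit on the arrays of the comparison alone has no form for the difference and was not run there. The cause was not tested beyond the construction of each alternative. The medians of the basement membrane class moved with type IV chains alone, to 0.20 after E2 and -0.02 under saline, against -0.04 and -0.56.

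The replicate numbers did not pair the mice: deviations of the 18 same-numbered pairs of arrays correlated with r of -0.282 to 0.274, and 8 were above 0.1. With the replicate number as a block, 13 collagen genes were called in WT, 0 in EAAE, 11 for the difference, 24 after E2 and 24 under saline. Nothing in the labels says that the arrays of a slide share an extraction. Signal over background limits Col12a1 and the dim probes named with it.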
